A study of Mus musculus with 15 samples.

Results

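The 10 receptor genes described here encode mouse Fc gamma receptors and their shared signalling subunit (Fcgr1, Fcgr2b, Fcgr3, Fcgr4 and Fcer1g), CD300 receptors (Cd300a, Cd300lf, Cd300lb and Cd300e) and the paired immunoglobulin-like receptor Pilra. They were taken by name, with 1 entry per Ensembl gene, from a table of 40510 genes. All 10 were found and all 10 passed the filter on low counts, so none is missing from any test below. The lowest count of any of them in any library was 163.

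The cells were alveolar macrophages, phagocytes that live in the airspace of the lung. They were collected by lavage from naive C57BL/6 mice, sorted as CD45+, Ly6G-, SiglecF+ and CD11c+ cells, and their RNA was sequenced. There were 5 groups of 3 libraries, and each library pooled 2 to 3 mice to reach about 50000 cells. The groups were CD11b-high and CD11b-low cells of 12-week-old Cybb knockout (KO) mice, CD11b-low cells of 12-week-old wild-type (WT) mice, CD11b-low cells of 4-week-old KO mice and CD11b-low cells of 4-week-old WT mice. Cybb encodes the catalytic subunit of the phagocyte NADPH oxidase, and its loss is the mouse model of chronic granulomatous disease. No WT CD11b-high libraries were analysed here, so in any comparison of CD11b-high KO with WT cells the genotype and the CD11b gate cannot be told apart.

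Fc gamma receptors bind the constant part of IgG and link antibody-coated particles to uptake, respiratory burst and cytokine release. The activating receptors signal through the tyrosine-based activation motif of Fcer1g, and the inhibitory receptor Fcgr2b carries an inhibitory motif that recruits lipid and protein phosphatases. CD300 receptors bind phospholipids and other lipids exposed on dying cells, and PILR receptors bind sialylated glycoproteins. Both of these families hold activating members, which signal through adaptors, and inhibitory members with cytoplasmic inhibitory motifs.

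Totals per library ran between 22856331 and 36458893 counts, with 15889 to 17973 genes detected. Levels are CPM (counts relative to the library total) scaled by TMM factors, and a difference was called at a Benjamini-Hochberg adjusted p under 0.05 over 13284 genes in edgeR's quasi-likelihood test. Cybb stood at 129 to 221 CPM in the 9 KO libraries, against 899 to 2319 CPM in the 6 WT libraries. Itgam, which encodes CD11b, averaged 60.2 ± 28.9 CPM in CD11b-high KO cells and 4.61 ± 1.58 CPM in CD11b-low KO cells (SD, n = 3 each). All 19 alveolar macrophage markers listed had counts in every group. Of these, 0 were called higher and 2 lower in KO than in WT CD11b-low cells at 12 weeks (2.6% and 0.497% of all genes). In CD11b-high KO against WT cells 2 were called higher and 4 lower (9.23% and 5.6% of all genes). None was called by edgeR between CD11b-high and CD11b-low KO cells or between the genotypes at 4 weeks. For the first of these, the alternative tools DESeq2 and limma voom called 2 and 3. From 4 to 12 weeks edgeR called 5 higher and 2 lower in WT cells (8.79% and 8.39% of all genes). In KO cells it called 2 higher and 0 lower (4.81% and 2.08%). Replicate 1 of the WT 12-week group stood apart from the other libraries of its group (lowest Pearson r 0.936 across genes). For replicate 1 of the CD11b-high group the lowest r in its own group was 0.953. Its r with replicate 1 of the CD11b-low KO group was 0.971. Other libraries also had a higher r outside their group than their lowest inside it. Among them were all CD11b-low KO libraries of 12 weeks and all WT libraries of 4 weeks. The value without replicate 1 of the WT 12-week or CD11b-high group stands beside a gene where it changes a call. It is also given where a direction turns with a shift of more than 1 SE. The labels say that the 3 libraries of a group are independent pools.

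The stretch before the RefSeq start is shown for the 3 genes with the widest range of group means, Cd300a, Pilra and Fcgr1, and for Cd300e, which with Pilra and Fcgr1 was called lower in CD11b-high than in CD11b-low KO cells. The sequences are RefSeq's on GRCm38.p6 and are written 5′ to 3′ on the strand of the gene. Bases in an annotated exon are left off, so the stretches of Pilra (247 bases) and Cd300e (112 bases) are shorter than the other pair (250 bases each). They lie at chr11:114889791-114890040 on the plus strand for Cd300a, and on the minus strand at chr3:96293970-96294219 for Fcgr1, chr5:137836282-137836528 for Pilra and chr11:115062178-115062289 for Cd300e. Capitals mark matches on either strand to the PU.1 core GAGGAAG, to the STAT palindrome TTCNNNGAA (GAS) or to the interferon-response element searched as GAAA, any 2 bases and GAAA again (ISRE). No marked match overlaps another.
Cd300a: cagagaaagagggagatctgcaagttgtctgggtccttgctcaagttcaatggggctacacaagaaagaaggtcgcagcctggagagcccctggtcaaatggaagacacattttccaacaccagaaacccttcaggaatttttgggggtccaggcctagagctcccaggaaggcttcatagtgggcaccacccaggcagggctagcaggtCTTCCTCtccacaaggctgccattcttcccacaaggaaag
Fcgr1: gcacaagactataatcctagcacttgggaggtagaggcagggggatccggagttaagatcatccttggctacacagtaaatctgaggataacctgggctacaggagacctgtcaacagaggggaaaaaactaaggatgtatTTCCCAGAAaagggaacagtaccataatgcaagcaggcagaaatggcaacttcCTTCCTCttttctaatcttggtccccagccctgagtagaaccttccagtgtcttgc
Pilra: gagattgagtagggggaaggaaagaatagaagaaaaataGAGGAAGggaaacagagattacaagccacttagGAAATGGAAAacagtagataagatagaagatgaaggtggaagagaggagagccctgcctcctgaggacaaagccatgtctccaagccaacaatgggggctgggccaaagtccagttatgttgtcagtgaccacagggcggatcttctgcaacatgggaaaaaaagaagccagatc
Cd300e: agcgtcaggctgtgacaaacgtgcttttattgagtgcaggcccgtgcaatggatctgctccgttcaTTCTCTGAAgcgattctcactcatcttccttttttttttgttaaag
PU.1 is a transcription factor of myeloid cells. The search covered the 250 bases before each RefSeq start, exons included, in 11 windows of the 10 genes and 32851 windows of all mouse genes. The PU.1 core was found in 7 of the 11 windows, against 10.6% of all windows. These belong to 6 of the 10 genes (Fcgr1, Fcgr3, Fcgr4, Cd300a, Cd300lf and Pilra). The RefSeq starts of Fcgr2b and Fcgr3 lie inside the longer GENCODE spans given for them below, so their windows are not upstream of those spans. The GAS letters were present in the windows of Fcgr1 and Cd300e and in 7.02% of all windows, and the ISRE letters in those of Fcgr4 and Pilra and in 2.98%. The AP-1 letters TGANTCA (6.75% of all windows) and the E-box CACGTG (6.02%) were in none of the 11 windows. Cd300a was higher in KO than in WT CD11b-low cells at 12 weeks, and Fcgr1 and Pilra fell in CD11b-high cells. These genes held the PU.1 core. So did Fcgr4 and Cd300lf, which were called in no comparison. Cd300e, which also fell in CD11b-high cells, and Cd300lb, which was higher in CD11b-high KO than in WT cells, did not. Any part of PU.1 in these differences was not tested.

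Per length, the common signalling subunit was the most abundant of the 10 transcripts in all 5 groups. In CPM per kb of merged exons, WT 12-week cells held a mean level of 4725 for Fcer1g, 831 for Fcgr3, 334 for Pilra, 188 for Fcgr4, 79.4 for Cd300lf, 57.7 for Fcgr1, 44.4 for Fcgr2b, 18.9 for Cd300a, 11.6 for Cd300e and 11.0 for Cd300lb. The low-affinity activating receptor Fcgr3 was thus well above the inhibitory receptor Fcgr2b in these cells. In CD11b-high KO cells the order differed: Cd300a averaged 86.2 CPM per kb, close to Pilra at 99.9, and Fcgr1 fell to 17.9, below Cd300lb at 31.2. The 10 genes together took 0.464 to 0.645% of all counts in CD11b-high KO libraries, 0.550 to 0.761% in CD11b-low KO and 0.597 to 0.974% in WT libraries at 12 weeks, and 0.497 to 0.528% in KO and 0.459 to 0.470% in WT libraries at 4 weeks.

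**Figure D1:**
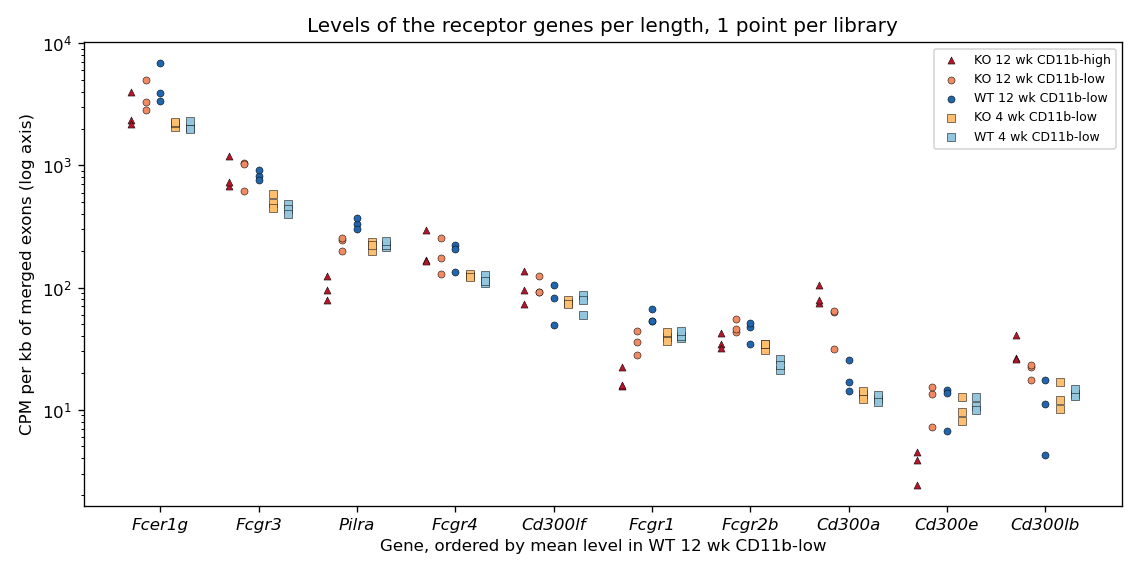
CPM per kb of merged exons (log axis) for each of the 10 genes, 1 point per library, with the 5 groups side by side in the order of the legend. Fcer1g and Fcgr3 lie above the other genes in every library, and Cd300a runs from 11.5 CPM per kb in the lowest WT 4-week library to 105 in the highest CD11b-high KO library.

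Fcgr1 encodes the high-affinity IgG receptor FcγRI (chromosome 3, 96282909 to 96293969, minus strand, GRCm38, 6 merged exons). It was lowest in the CD11b-high KO cells, with 40.1, 57.7 and 41.1 CPM. At 12 weeks the CD11b-low cells held 73.0, 93.5 and 114 CPM in KO mice, against 137, 173 and 138 CPM in WT mice. At 4 weeks the level was 102, 95.4 and 112 CPM in KO cells and 100.2, 104 and 113 CPM in WT cells. The 3 groups of 12 weeks therefore stood in steps that did not overlap, while both 4-week groups lay together and overlapped the CD11b-low KO cells of 12 weeks.

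Fcgr1 fell in CD11b-high KO cells relative to CD11b-low KO cells (log2 fold change -1.01, SE 0.22, 95% interval -1.48 to -0.55, adjusted p = 0.0416, edgeR) and relative to WT cells (-1.69, SE 0.22, adjusted p = 7.5e-05), where the level was 3.23-fold lower. The call against CD11b-low KO cells was lost without any single one of the CD11b-high libraries (adjusted p = 0.0666 to 0.199) and without replicates 2 or 3 of the CD11b-low KO group (0.133 and 0.197). Between CD11b-low KO and WT cells at 12 weeks the difference was -0.68 (SE 0.22) and did not pass the test (adjusted p = 0.101, edgeR), though the libraries did not overlap. Of 12 alternative fits it passed in 1, DESeq2 (adjusted p = 0.0363).

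Fcgr3 encodes FcγRIII, an activating low-affinity receptor (chromosome 1, 171051174 to 171064935, minus strand). The level at 12 weeks was 2054, 1174 and 1268 CPM in CD11b-high KO cells, 1822, 1079 and 1788 CPM in CD11b-low KO cells, and 1434, 1578 and 1317 CPM in WT cells. At 4 weeks it was 1007, 849 and 780 CPM in KO cells and 838, 766 and 689 CPM in WT cells. Every 12-week library lay above every 4-week library, and the 3 groups of 12 weeks overlapped. In WT cells the level at 12 weeks was 1.89-fold that at 4 weeks (log2 0.92, SE 0.26, adjusted p = 0.0233, edgeR), a call lost without replicate 2 of the 12-week group (0.0717), without any 1 library of the 4-week group (0.0582 to 0.0975), or with only these 6 libraries fitted (0.053). In KO cells the difference with age was 0.83 (SE 0.26) and missed the threshold (adjusted p = 0.0615, edgeR). It passed in 4 of 12 alternative fits, among them DESeq2 (adjusted p = 0.0129) and limma voom (adjusted p = 0.011), and not in the other 8. The interaction of genotype and age was -0.09 (95% interval -0.86 to 0.69). Between CD11b-high KO and WT cells the difference was 0.05, and -0.25 without replicate 1 of the CD11b-high group, not called in either fit.

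Fcgr4 encodes FcγRIV, an activating receptor for IgG2 subclasses (chromosome 1, 171018920 to 171029761, plus strand). It was called in none of the comparisons. Means were 262 ± 94.0 CPM in CD11b-high KO cells, 232 ± 78.4 CPM in CD11b-low KO cells and 236 ± 58.6 CPM in WT cells at 12 weeks, and 157 ± 4.85 CPM in KO and 147 ± 12.0 CPM in WT cells at 4 weeks (SD, n = 3 each). All 9 libraries of 12 weeks were between 162 and 371 CPM and all 6 of 4 weeks between 138 and 162 CPM, and the difference with age in WT cells was 0.68 (SE 0.28, adjusted p = 0.103, edgeR). CD11b-high KO cells differed by 0.18 from CD11b-low KO and by 0.15 from WT cells, and by -0.17 and -0.18 without replicate 1 of the CD11b-high group.

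Fcer1g encodes the common gamma chain, which the activating Fc gamma receptors need to reach the surface and to signal (chromosome 1, 171229572 to 171234365, minus strand). Its level at 12 weeks was 3507, 2038 and 1918 CPM in CD11b-high KO cells, 4348, 2476 and 2901 CPM in CD11b-low KO cells, and 5971, 3453 and 2965 CPM in WT cells. At 4 weeks the libraries lay close together, with 1809, 1954 and 1995 CPM in KO cells and 1764, 1747 and 2025 CPM in WT cells. Replicate 1 was the highest in each of the 3 groups of 12 weeks. In WT cells the 12-week level was 2.24-fold that of 4 weeks (log2 1.16, SE 0.31, adjusted p = 0.0158, edgeR), and all 3 libraries of 12 weeks were above all 3 of 4 weeks. That call was lost without replicate 1 or replicate 2 of the 4-week WT group (adjusted p = 0.0638 and 0.0603). Between genotypes at 12 weeks the difference was -0.35 (95% interval -0.99 to 0.29). It was 0.01 without replicate 1 of the WT group. Between CD11b-high KO and WT cells it was -0.73 (adjusted p = 0.115, edgeR), and it passed the test without replicate 1 of the CD11b-high group (-1.07, adjusted p = 0.0331).

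Fcgr2b encodes FcγRIIB, the inhibitory Fc gamma receptor (chromosome 1, 170958617 to 170976547, minus strand). CPM at 12 weeks were 201, 248 and 186 in CD11b-high KO cells, 251, 265 and 319.6 in CD11b-low KO cells, and 199.7, 274 and 298 in WT cells. At 4 weeks they were 178, 200.3 and 199 in KO cells, against 149, 122 and 135 in WT cells. The lowest group was thus the 4-week WT cells, whose libraries all lay below those of the other 4 groups. In WT cells Fcgr2b rose with age (log2 0.92, SE 0.21, 1.90-fold, adjusted p = 0.00887, edgeR), a call lost with only these 6 libraries fitted (0.0594). The difference between KO and WT cells at 4 weeks was 0.50 (SE 0.21) with libraries that did not overlap, and the adjusted p was 1. Read as counts within a library, which need no scaling, the ratio of Fcgr2b to Fcgr1 was 4.30 to 5.01 in CD11b-high KO cells, 2.80 to 3.45 in CD11b-low KO cells and 1.45 to 2.15 in WT cells at 12 weeks, and 1.75 to 2.10 in KO and 1.18 to 1.49 in WT cells at 4 weeks. This ratio was chosen after the values had been seen. It does not remove differences between libraries that go with gene length, given below, and Fcgr2b has 5.79 kb of merged exons and Fcgr1 2.59 kb.

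Cd300a encodes an inhibitory receptor that binds phosphatidylserine and phosphatidylethanolamine on dying cells (chromosome 11, 114890041 to 114904654, plus strand). It was the only one of the 10 genes called between KO and WT CD11b-low cells at 12 weeks, a count of 1 of 10 where 3.1% of all tested genes were called and 2.6% were called higher. The CD11b-high KO cells held 496, 353 and 375 CPM. The CD11b-low cells of 12 weeks held 298, 149.7 and 304 CPM in KO mice, against 67.8, 121 and 79.8 CPM in WT mice. At 4 weeks it was 64.3, 68.0 and 58.5 CPM in KO cells and 58.4, 62.0 and 54.4 CPM in WT cells. The 3 groups of 12 weeks stood apart from each other in the order CD11b-high KO, CD11b-low KO and WT, and both 4-week groups overlapped.

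Cd300a was 2.80-fold higher in KO than in WT CD11b-low cells at 12 weeks (log2 1.48, SE 0.28, 95% interval 0.90 to 2.07, adjusted p = 0.00614, edgeR). The call held without each library in turn (log2 1.32 to 1.76) and was lost when only these 6 libraries were fitted (adjusted p = 0.0941). At 4 weeks the difference was 0.13 (95% interval -0.45 to 0.70). The change of the genotype difference with age was 1.36 (SE 0.39), with an unadjusted p of 0.00266 and an adjusted p of 0.234, so a difference between the ages did not pass the test. In KO cells the level at 12 weeks was 3.94-fold that at 4 weeks (1.98, SE 0.28, adjusted p = 5.0e-04). CD11b-high KO cells were 4.56-fold above WT cells (2.19, SE 0.28, adjusted p = 6.4e-05) and 1.63-fold above CD11b-low KO cells, the last of these not called (0.71, SE 0.27, adjusted p = 0.342).

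Cd300lf encodes a phosphatidylserine receptor with inhibitory motifs (chromosome 11, 115116214 to 115133992, minus strand). It varied least among the 10 between group means and was not called in any comparison. Its mean was 526 ± 167 CPM in CD11b-high KO, 528 ± 94.1 CPM in CD11b-low KO and 409 ± 145 CPM in WT cells at 12 weeks, and 389 ± 18.2 CPM in KO and 388 ± 73.8 CPM in WT cells at 4 weeks (SD, n = 3 each). Neighbouring groups overlapped throughout this order.

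Cd300lb encodes an activating receptor that pairs with the adaptor Tyrobp (chromosome 11, 114922781 to 114934386, minus strand). It held 76.8, 120.1 and 76.1 CPM in CD11b-high KO cells, 51.1, 64.8 and 67.6 CPM in CD11b-low KO cells and 12.4, 51.5 and 32.4 CPM in WT cells at 12 weeks. At 4 weeks the values were 48.9, 29.4 and 35.1 CPM in KO cells and 39.5, 38.1 and 43.2 CPM in WT cells. CD11b-high KO libraries were above all others, and in the WT cells of 12 weeks the highest library was several times the lowest. The level in CD11b-high KO cells was 2.83-fold that of WT cells (log2 1.5, SE 0.37, adjusted p = 0.0111, edgeR), and this was not called without replicate 2 of the CD11b-high group (1.25, adjusted p = 0.0671) or with only these 6 libraries fitted (adjusted p = 0.0864). Between CD11b-low KO and WT cells the difference was 0.93 (SE 0.36, adjusted p = 0.168, edgeR), and 1.45 without replicate 2 of the WT group, where its adjusted p lay just under the threshold (0.05 as rounded). With age in WT cells it was -0.33, and 0.06 without replicate 1 of the 12-week group, not called in either fit.

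Cd300e encodes an activating CD300 receptor of monocytes and macrophages (chromosome 11, 115051917 to 115062177, minus strand). Its levels were low in all groups and lowest in CD11b-high KO cells, with 8.11, 9.33 and 5.05 CPM. CD11b-low cells of 12 weeks held 15.1, 27.8 and 31.8 CPM in KO mice, against 13.8, 30.5 and 28.6 CPM in WT mice. At 4 weeks it was 26.4, 17.0 and 20.1 CPM in KO cells and 22.3, 26.5 and 20.8 CPM in WT cells. All 3 CD11b-high libraries were below the other 12, which overlapped. Cd300e was 3.33-fold lower in CD11b-high than in CD11b-low KO cells (log2 -1.74, SE 0.34, adjusted p = 0.0234, edgeR) and 3.25-fold lower than in WT cells (-1.70, SE 0.34, adjusted p = 0.00291). The first of these calls was lost without replicates 2 or 3 of the CD11b-high group (adjusted p = 0.0666 and 0.136) or replicates 2 or 3 of the CD11b-low KO group (0.11 and 0.134).

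Pilra encodes an inhibitory receptor for sialylated glycoproteins (chromosome 5, 137821952 to 137836281, minus strand). It held 297, 384 and 245 CPM in CD11b-high KO cells. In CD11b-low cells of 12 weeks the values were 614, 764 and 786 CPM in KO mice, against 1029, 1139 and 930.0 CPM in WT mice. At 4 weeks they were 732, 616 and 684 CPM in KO cells and 663, 694 and 742 CPM in WT cells. As for Fcgr1, the 3 groups of 12 weeks did not overlap, and the 4-week groups lay with the CD11b-low KO cells of 12 weeks. CD11b-high KO cells were 2.34-fold below CD11b-low KO cells (log2 -1.23, SE 0.22, 95% interval -1.69 to -0.77, adjusted p = 0.0149, edgeR) and 3.35-fold below WT cells (-1.74, SE 0.22, adjusted p = 5.5e-05). The first of these was not called without replicate 3 of the CD11b-high group (adjusted p = 0.0897) or replicates 2 or 3 of the CD11b-low KO group (0.0736 and 0.0838). KO CD11b-low cells were below WT cells at 12 weeks by a difference that did not pass (-0.52, SE 0.22, adjusted p = 0.193, edgeR).

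**Figure D2:**
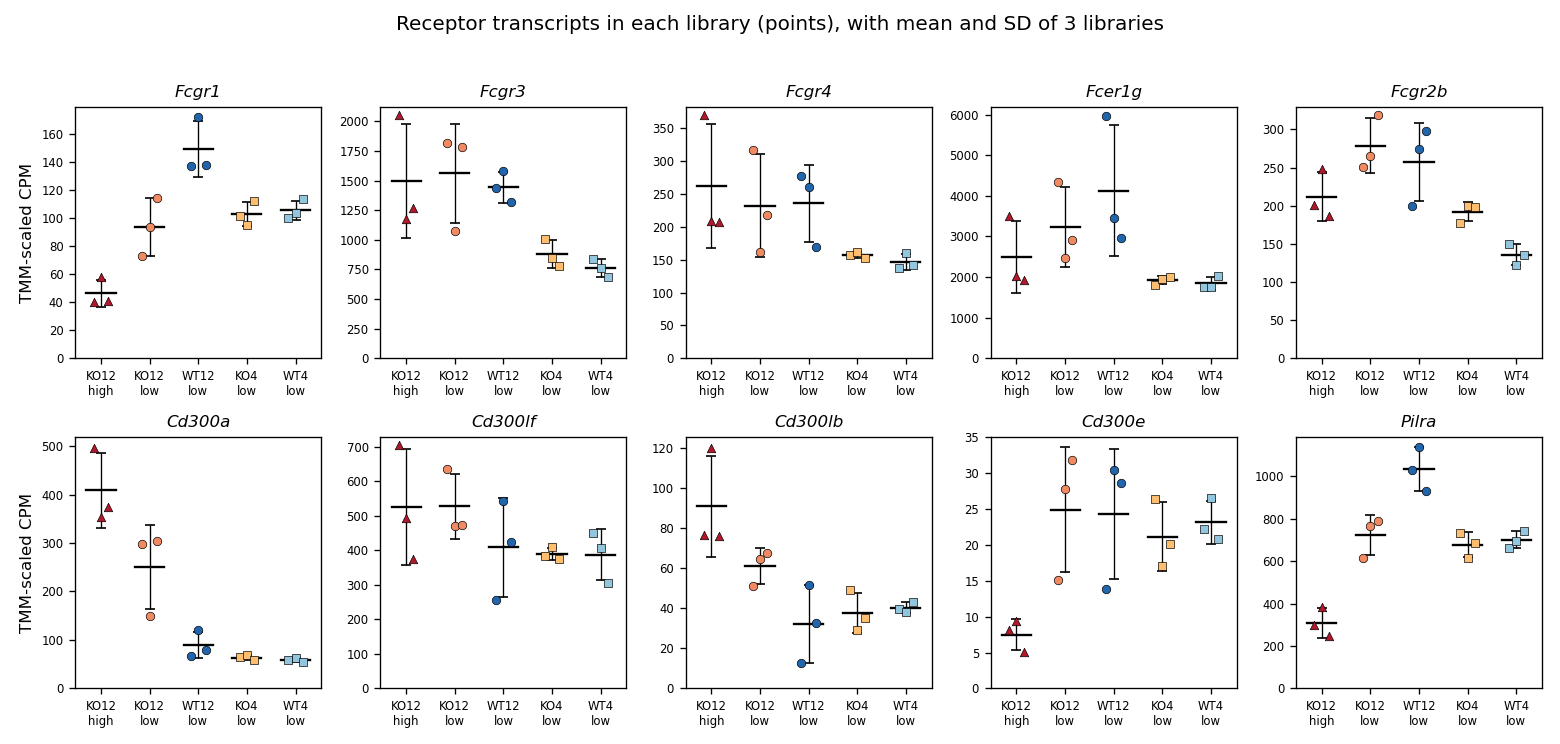
TMM-scaled CPM (linear axis from 0) of each gene in each library, grouped along the horizontal axis as KO 12-week CD11b-high (KO12 high), KO 12-week CD11b-low (KO12 low), WT 12-week (WT12 low), KO 4-week (KO4 low) and WT 4-week (WT4 low) cells; points are libraries, bars the mean and SD of 3. Cd300a falls in steps across the 3 groups of 12 weeks, with means of 408, 250.4 and 89.5 CPM, and Fcgr1 and Pilra climb across the same groups.

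Counted together, CD11b-high KO cells differed from WT cells at 12 weeks in 5 of the 10 genes, where 14.8% of all tested genes were called. Cd300a and Cd300lb were higher (9.23% of all genes were called higher) and Fcgr1, Cd300e and Pilra were lower (5.6%). The libraries of these 2 groups did not overlap for 5 of the 10 genes, against 26.4% of all genes. Between CD11b-high and CD11b-low KO cells 3 of 10 were called, all lower, where 0.693% of all genes were called, 0.572% higher and 0.12% lower. The libraries did not overlap for 6 of 10, against 13.8% of all genes. Without replicate 1 of the CD11b-high group 2 were called against CD11b-low KO cells and 6 against WT cells, and without replicate 1 of the WT group 5 were called against WT cells. With only these 6 libraries fitted, none of the 3 passed (adjusted p = 0.16 for Fcgr1, 0.0821 for Cd300e and 0.0887 for Pilra). With the same 6 libraries and the replicate block, 3 were called.

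Between KO and WT CD11b-low cells the libraries of 12 weeks did not overlap for Fcgr1, Cd300a and Pilra, 3 of 10 against 17.8% of all genes. At 4 weeks none of the 10 was called by edgeR, by DESeq2 or by limma voom, where edgeR called 0.0979% of all genes, 0.0151% higher and 0.0828% lower. Only Fcgr2b had an unadjusted p under 0.05 there, and it was also the only gene whose libraries did not overlap (1 of 10, against 8.63% of all genes). The interaction of genotype and age called none of the 10 by edgeR, DESeq2 or limma voom, with 1 at an unadjusted p under 0.05 (Cd300a), where 0.248% of all genes were called by edgeR. These comparisons share groups with each other, so their calls are not independent.

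With age, 1 of 10 rose in KO CD11b-low cells, where 6.89% of all genes were called, 4.81% higher and 2.08% lower. In WT cells 3 of 10 rose, where 17.2% were called, 8.79% higher and 8.39% lower. The libraries of 12 and 4 weeks did not overlap for 7 of 10 in KO cells and 7 of 10 in WT cells, against 38.6% and 34.3% of all genes. The median difference with age over the 10 was 0.55 on the log2 scale in KO cells and 0.59 in WT cells, against -0.02 and -0.03 over all genes.

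**Figure D3:**
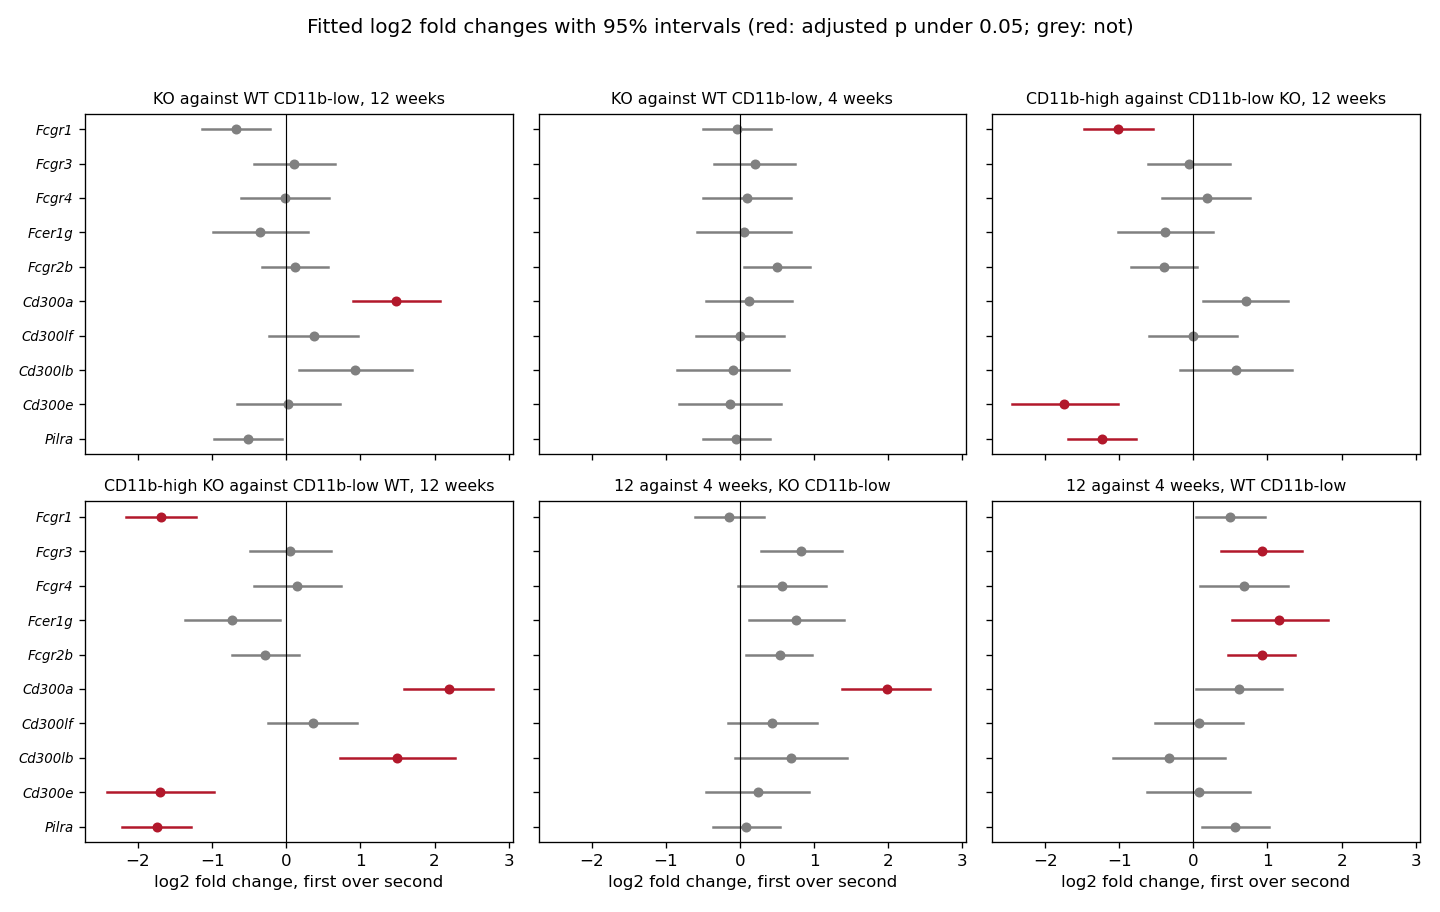
Fitted log2 fold changes (horizontal axis, first group over second) with 95% intervals for the 10 genes in 6 comparisons; red marks an adjusted p under 0.05. CD11b-high KO cells show the widest differences, between -1.74 for Pilra and 2.19 for Cd300a against WT cells, and at 4 weeks all 10 genes lie between -0.13 and 0.50.

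Transcripts listed as markers of other cell types were read in the same groups. Which cells held them was not tested. Summed over 15 neutrophil markers, libraries held 391 to 556 CPM of library total in CD11b-high KO, 183 to 234 CPM in CD11b-low KO and 97.2 to 125 CPM in WT cells at 12 weeks, and 143 to 178 CPM in KO and 136 to 172 CPM in WT cells at 4 weeks. S100a8 led this sum in CD11b-high KO cells and Mmp8 in the other groups, and Ly6g was at 0 in every library. Summed over 20 T and NK cell markers, which include Cd247, the levels were 45.3 to 118, 54.0 to 156 and 3.67 to 9.46 CPM in the 3 groups of 12 weeks in the same order, and at most 5.84 CPM at 4 weeks. Over 13 dendritic cell markers they were 130.0 to 615, 79.4 to 128 and 34.3 to 41.4 CPM at 12 weeks and at most 36.5 CPM at 4 weeks. The top gene there was Ccl17 in CD11b-low KO cells of 12 weeks and Ccl22 in the other groups. Summed over 15 monocyte markers, the levels were 199 to 447, 230.0 to 427 and 211 to 423 CPM at 12 weeks. At 4 weeks they were 436 to 591 CPM in KO and 347 to 559 CPM in WT cells. Fn1 alone made up 56.0 to 70.5% of this sum by group. Of 14 monocyte markers tested, 5 were called higher and 0 lower in CD11b-high KO against WT cells (9.23% and 5.6% of all genes). Their median was 1.45 on the log2 scale. Against CD11b-low KO cells none was called, with a median of 1.05. The 7 eosinophil markers summed to 312 to 999, 124 to 617 and 10.02 to 17.3 CPM at 12 weeks and to at most 39.3 CPM at 4 weeks, nearly all of it Ear6, with Epx and Prg3 at 0 in all groups.

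Of the remaining lists, erythroid markers held 81.2 to 180.3, 94.0 to 145 and 528 to 1386 CPM at 12 weeks, and 70.7 to 193 CPM in KO and 1878 to 8764 CPM in WT cells at 4 weeks. Mast cell and basophil markers reached 6.98 to 30.5 CPM in CD11b-high KO cells and at most 1.74 CPM elsewhere. Hdc made up 77.1% of this sum in CD11b-high KO cells, where Mcpt8, Mcpt4, Cma1, Fcer1a, Ms4a2 and Prss34 were at 0. B and plasma cell markers held 68.1 to 219 CPM over all groups, most of it Cd22, and lung epithelial markers 595 to 1668 CPM, mostly Krt19. Neutrophils, monocytes, dendritic cells and NK cells also carry Fc gamma and CD300 receptors, and the part of such cells in the differences above was not tested. In pools of sorted cells, fewer cells of a type and less RNA per cell cannot be told apart.

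Gene length moved with age across all genes. Among tested protein-coding genes with merged exons under 1.5 kb, the median difference between 12 and 4 weeks was 0.48 in KO and 0.83 in WT cells on the log2 scale, and among those over 5 kb it was -0.25 and -0.28. Fcer1g has 0.874 kb of merged exons, Fcgr4 1.26 kb and Fcgr3 1.74 kb, so their differences with age in WT cells (1.16, 0.68 and 0.92) stand beside class medians of 0.83, 0.83 and 0.28. Fcgr2b has 5.79 kb and Cd300a 4.74 kb. Their rises with age, 0.92 in WT cells for Fcgr2b and 1.98 in KO cells for Cd300a, stand beside medians of -0.28 and -0.02 in their classes. Between KO and WT CD11b-low cells at 12 weeks the shortest class had a median of -0.45, beside a difference of -0.35 for Fcer1g. The part of length in the differences of single genes was not tested.

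**Figure D4:**
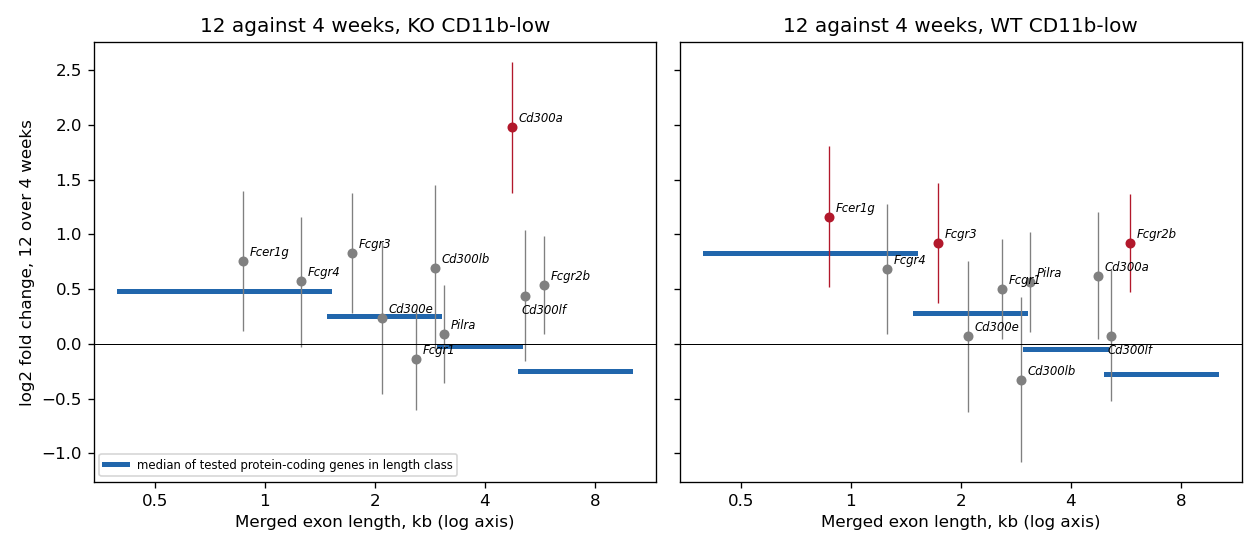
Log2 fold change of 12 over 4 weeks (vertical axis, with 95% intervals) against merged exon length in kb (log axis) for the 10 genes in KO (left) and WT (right) CD11b-low cells; blue bars are medians of all tested protein-coding genes in 4 length classes, and red points passed the test. The interval of Fcer1g covers the bar of its class in both genotypes. The points of Fcer1g, Fcgr2b, Fcgr3, Cd300a, Cd300lf and Pilra lie above the bars of their classes in both genotypes.

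Among the 10 genes, Fcgr1 and Pilra were the most alike over the 15 libraries (Pearson r = 0.974 on log2(CPM + 1)), followed by Fcgr3 and Fcgr4 (0.89), Cd300e and Pilra (0.86) and Fcgr1 and Cd300e (0.844). Fcgr1 and Cd300a ran opposite to each other (-0.726). These values share libraries and groups and are given as a description. The 3 genes with the widest range of group means were Cd300a (2.77 on the log2 scale), Pilra (1.76) and Fcgr1 (1.68). Among 7101 genes outside the 10, those most like Cd300a were Aph1c (r = 0.990), which encodes a gamma-secretase subunit, the mitochondrial arginase gene Arg2 (0.990) and Fkbp11 (0.984). Those most like Pilra were the transferrin gene Trf (0.966), the galanin gene Gal (0.964) and Smim5 (0.963), and those most like Fcgr1 were Haao (0.959), Gal (0.953) and Smim5 (0.952). Gal and Smim5 were therefore named for both Fcgr1 and Pilra.

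**Figure D5:**
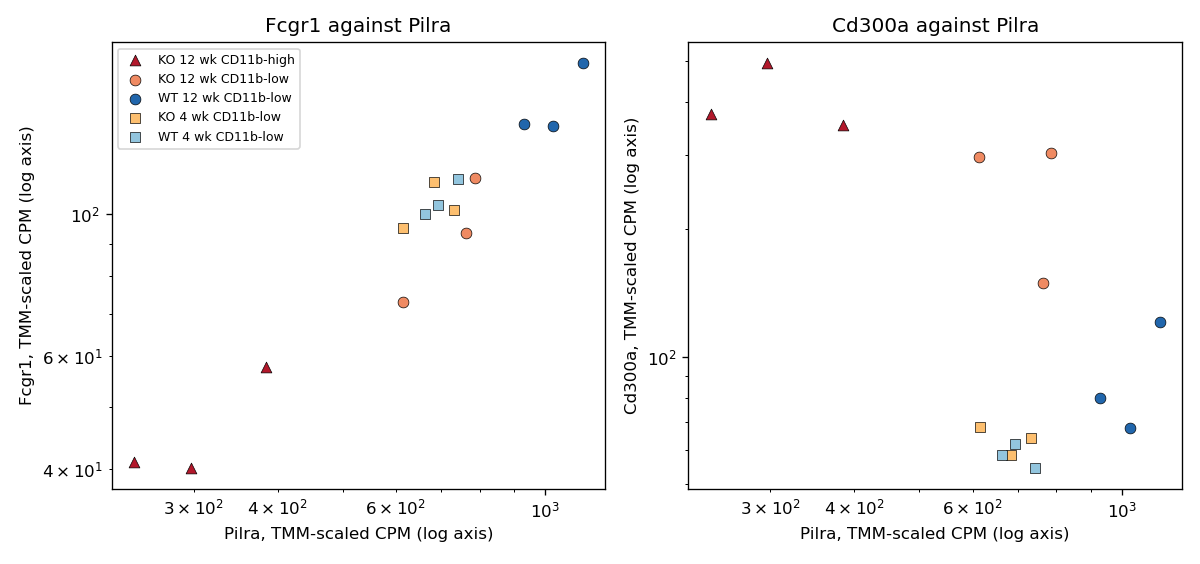
Fcgr1 (left) and Cd300a (right) against Pilra, in TMM-scaled CPM on log axes, 1 point per library. Fcgr1 and Pilra are both lowest in the CD11b-high KO libraries and both highest in the WT 12-week libraries, and Cd300a separates the 12-week KO libraries (149.7 CPM and above) from the other libraries (121 CPM and below).

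The relatives of these receptors moved with them in part. Of 21 other Fc, CD300 and PILR family genes, 11 were tested. In CD11b-high KO against WT cells 1 was higher and 5 lower (9.23% and 5.6% of all tested genes), and the median over the 11 was -0.68, against -0.01 over all genes. Fcrls rose (mean 3.56 CPM in CD11b-high KO cells and 0.0895 CPM in WT cells), while Cd300lg fell (-2.29, SE 0.31, adjusted p = 1.0e-04, edgeR), as did Pilrb2 (-1.56, SE 0.30, adjusted p = 0.00207) and Fcgrt (-1.52, SE 0.35, adjusted p = 0.00805). Fcgrt encodes the neonatal Fc receptor, which recycles IgG, and averaged 336 CPM in CD11b-high KO and 521 CPM in CD11b-low KO cells, against 961 CPM in WT cells. Pilrb2, an activating partner of Pilra, averaged 33.6, 66.2 and 99.2 CPM in the same order. Cd300lg was the only relative called between CD11b-high and CD11b-low KO cells, 1 of 11 where 0.693% of all genes were called (3.16 and 9.64 CPM, log2 -1.62, SE 0.31, adjusted p = 0.0215, edgeR). With age, Cd300c, Cd300c2, Pilrb2 and Cd300ld rose in WT cells, by 1.43, 1.41, 1.14 and 0.84 on the log2 scale, and Cd300ld in KO cells, by 0.82. That is 4 of 11 in WT cells, where 8.79% of all genes rose, and 1 of 11 in KO cells, where 4.81% rose. Between the genotypes in CD11b-low cells edgeR called none of the 11 at 12 weeks (3.1% of all genes), with 3 at an unadjusted p under 0.05, 0 called by DESeq2 and 1 by limma voom. It called none at 4 weeks (0.0979% of all genes), with 0 at an unadjusted p under 0.05 and 0 called by either other tool.

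Cd300c2 lies in the same gene cluster as Cd300a and shares some sequence with it. It went the other way between the genotypes at 12 weeks, with means of 516 CPM in CD11b-high KO, 596 CPM in CD11b-low KO and 980.2 CPM in WT cells (KO against WT CD11b-low cells -0.72, SE 0.29, adjusted p = 0.184, edgeR). In counts within a library, the ratio of Cd300a to Cd300c2 was 0.664 to 0.981 in CD11b-high KO cells, 0.349 to 0.447 in CD11b-low KO cells and 0.0534 to 0.121 in WT cells at 12 weeks. At 4 weeks it was 0.170 to 0.226 in KO and 0.152 to 0.168 in WT cells. The ratio of Cd300a to Pilra was 0.920 to 1.67 in CD11b-high KO cells, 0.196 to 0.484 in CD11b-low KO cells and 0.0659 to 0.106 in WT cells at 12 weeks. It was 0.0856 to 0.111 in KO and 0.0734 to 0.0894 in WT cells at 4 weeks. These ratios need no scaling between libraries, and they were chosen after the values had been seen. They do not remove differences between libraries that go with gene length.

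Most genes of the signalling pathways around the receptors were not called. Of 28 tested adaptors and kinases of activating signalling, 2 were higher and 0 lower in KO than in WT CD11b-low cells at 12 weeks (2.6% and 0.497% of all genes), namely Blnk, an adaptor of B cells and macrophages (2.44 and 0.0375 CPM), and Cd247, the zeta chain of T and NK cell receptors (9.84 and 0.180 CPM), one of the T and NK cell markers summed above. In CD11b-high against CD11b-low KO cells 1 was higher (0.572% of all genes), the adaptor Lat2 (38.7 and 3.37 CPM, log2 3.52, SE 0.67, adjusted p = 0.0221, edgeR). In WT cells with age 2 rose and 5 fell, where 8.79% of all genes rose and 8.39% fell, and the median over the 28 was -0.34, against -0.03 over all genes. The adaptors Tyrobp and Hcst, which serve many activating receptors, averaged 6508 and 125 CPM at 12 weeks, against 2106 and 46.8 CPM at 4 weeks, and the phosphoinositide 3-kinase genes Pik3ap1 and Pik3cg fell by 2.14 and 1.68 on the log2 scale. In CD11b-high KO against WT cells 4 were higher (Blnk, Cd247, Lat2 and Tec) and 1 lower (Was), against 9.23% and 5.6% of all genes. With age in KO cells 3 rose (Cd247, Blnk and Lat2) and 1 fell (Pik3ap1), against 4.81% and 2.08%. Between the genotypes at 4 weeks edgeR called none of the 28, with 0 at an unadjusted p under 0.05 and 0 called by DESeq2 or limma voom.

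On the inhibitory side, 16 genes that act downstream of inhibitory motifs or otherwise restrain signalling were tested. Between KO and WT CD11b-low cells edgeR called none at 12 weeks, with 4 at an unadjusted p under 0.05, 1 called by DESeq2 and 0 by limma voom, and none at 4 weeks, with 0 by any of these counts. Between CD11b-high and CD11b-low KO cells it called none, with 1 at an unadjusted p under 0.05 and 0 called by the other tools. In CD11b-high KO against WT cells Socs3 rose (9.12 and 2.83 CPM) and Csk, an inhibitory kinase, fell (23.6 and 54.3 CPM), 2 of 16 where 14.8% of all genes were called. Inpp5d, which encodes the phosphatase SHIP-1 that Fcgr2b recruits, fell with age in WT cells by 1.19 on the log2 scale (47.9 and 109.6 CPM, adjusted p = 0.00971, edgeR), the only one of the 16 called there, where 17.2% of all genes were called.

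Of 37 other paired and inhibitory immunoglobulin-type and related receptors, 4 were higher and 0 lower in KO than in WT CD11b-low cells at 12 weeks (2.6% and 0.497% of all genes). They were the SLAM family genes Slamf7 (8.65 and 0.343 CPM) and Slamf8 (1.05 and 0.113 CPM), the inhibitory adhesion receptor gene Ceacam1 (19.6 and 6.09 CPM) and Clec5a, an activating lectin that signals through Tyrobp (249.5 and 102 CPM). In CD11b-high KO against WT cells 11 were higher and 4 lower (9.23% and 5.6% of all genes), with a median of 0.27 over the 37, against -0.01 over all genes. In CD11b-high against CD11b-low KO cells only Slamf7 was called (47.1 and 8.65 CPM), where 0.693% of all genes were called. With age 6 rose and 0 fell in KO cells (4.81% and 2.08% of all genes), and 4 rose and 1 fell in WT cells (8.79% and 8.39%). Among 10 complement receptors and integrins, Cd93 was the only one called between KO and WT CD11b-low cells at 12 weeks, higher in KO cells (61.1 and 10.2 CPM, log2 2.58, SE 0.37, adjusted p = 7.3e-04, edgeR). In CD11b-high against CD11b-low KO cells 2 were higher, Itgam, on which the cells were sorted, and the receptor gene C3ar1 (30.4 and 5.03 CPM). In CD11b-high KO against WT cells 5 were higher, again with Itgam of the sort gate among them, and 2 lower (9.23% and 5.6% of all genes). The lower ones were the C5a receptor gene C5ar1 (289 and 911 CPM) and Vsig4, which was hardly detected (0 and 0.285 CPM). With age 2 rose and 1 fell in KO cells, and 0 rose and 3 fell in WT cells. These 10 genes were read against the same shares of all genes as the 37 receptors.

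Counts of a few genes may include reads of neighbours or copies, since the strand setting of the counting is not given in the sources used here. Pilra shares 468 exon bases, 15.2% of its merged exons, with Zcwpw1 on the opposite strand, which had 3300 counts in all 15 libraries together. Of the 50-base windows of its transcripts, 20.8% also occur in another gene, mainly Zcwpw1, Pilrb1 and Pilrb2. For Fcgr3 the share was 9.58%, all with Fcgr2b, for Fcgr2b 6.95%, for Cd300a 3.45%, mostly with Cd300c2, and for Cd300lf 2.44%, and no such window was found in Fcgr1, Fcgr4, Fcer1g, Cd300e or Cd300lb.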

How the data were processed

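RNA was measured in 15 libraries in 5 groups of 3. The table holds raw gene counts as the authors deposited them, a column for each library. STAR (aligner) and featureCounts of Subread (counter) are named, per the submitters' processing notes. Versions, strand setting and genome build are not given in the sources used here. Of 40780 rows, 270 were further entries of 160 genes with identical counts and were removed, leaving 40510 genes, 25100 of them with a count. Library totals had a median of 32415469 counts.

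Counts were fitted in R 4.3.3 with edgeR 4.0.16: filterByExpr (minimum count 10, minimum total 15), TMM scaling and a robust quasi-likelihood fit over all 15 libraries, 1 coefficient per group and 10 residual degrees of freedom. The 7 comparisons were two-sided, with Benjamini-Hochberg adjustment over 13284 genes at 0.05. The fit was tested on simulated data, and a difference that was not called is not shown to be absent. Alternatives were DESeq2 1.42.0 with its size factors, limma 3.58.1 voom with library weights, no filter, only the groups compared, a replicate block and each library left out. Same-numbered CD11b-high and CD11b-low KO libraries of 12 weeks deviated together (r = 0.429, 0.353 and 0.113). Their numbers were taken as pairs, from the data alone, only in the alternatives with a replicate block. The calls reported above are from the fit without a block. Same-numbered CD11b-low KO and WT libraries of 12 weeks, which come from different mice, had r = 0.364, 0.085 and 0.205. CD11b-high KO and WT libraries had r = 0.165, 0.185 and 0.019. What the same-numbered libraries share was not tested. Marker sums are CPM of the library total.

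Gene positions and merged exon lengths are from GENCODE M21 (GRCm38), matched by Ensembl identifier. RefSeq upstream sequences were found for all 10 genes (11 windows). The members, lists, comparisons and rule for naming genes were chosen with earlier results of these data known. All 10 members are named, and of each list up to 4 called genes by size of change. Likeness was computed over genes other than the members with a mean of at least 10 CPM in a group. The length classes and count ratios were chosen after seeing the data.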

Additional observations from a re-analysis of the deposited data

How the results depend on the processing

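Called members kept their direction in every alternative, and the number called moved by more than 1.5 times in 4 of the 7 comparisons. For KO against WT CD11b-low cells at 12 weeks 1 was called, 2 with no filter on low counts and 2 by DESeq2, 0 with only the 2 groups fitted, and 1 to 2 with a library left out. For CD11b-high against CD11b-low KO cells 3 were called, 0 with only the 2 groups fitted and 0 to 3 with a library left out. For 12 against 4 weeks it was 1 in KO cells, with 3 by DESeq2, 5 by limma voom, 2 with only the 2 groups and 1 to 2 with a library left out. In WT cells it was 3, with 6 by limma voom, 1 with only the 2 groups and 1 to 3 with a library left out. CD11b-high KO against WT cells gave 4 to 6 calls under every alternative (5 as reported), and the 4-week and interaction comparisons gave 0 throughout. The replicate block over all 15 libraries gave the same numbers as without it in each comparison (1, 0, 3, 5, 1, 3 and 0). It leaves 8 residual degrees of freedom. Over all genes, KO against WT at 12 weeks called 412 genes, 1090 with no filter, 880 by DESeq2, 189 with only the 2 groups and as few as 230 with a library left out. At 4 weeks it called 13, against 73, 24, 4 and 4 to 15. CD11b-high against CD11b-low KO cells called 92, against 533, 261 and 18 and 2 to 247, with 165 by limma voom and 252 in a paired fit of the 6 libraries. CD11b-high KO against WT cells called 1970, against 793 with only the 2 groups and 952 to 2099 with a library left out. Age in KO cells called 915, against 1395 with no filter, 1698 by DESeq2, 2640 by limma voom, 1646 with only the 2 groups and 235 to 1305 with a library left out. Age in WT cells called 2282, against 3968 by limma voom, 1123 with only the 2 groups and 1069 to 2528 with a library left out. The interaction called 33, against 321 with no filter, 151 by DESeq2, 66 with the replicate block and 3 to 35 with a library left out. The causes of these changes were not tested. Fits of only the 2 groups, and those with a library left out, rest on fewer samples. Of the members' single values, 26 lost their call and 16 gained one. A further 5 stayed uncalled and turned direction with a shift of more than 1 SE. The other 863 kept their side of the threshold without such a turn. Another scaling moved the median of all genes by at most 0.056 on the log2 scale.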
